A study of Mus musculus with 24 samples.

Results

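The HoxD cluster of the mouse holds the Hox genes Hoxd13, Hoxd12, Hoxd11, Hoxd10, Hoxd9, Hoxd8, Hoxd4, Hoxd3 and Hoxd1, with Evx2, a homeobox gene related to even-skipped, beyond Hoxd13. These 10 genes and the gene-poor stretches on both sides of them were followed through 10 deposited peak lists of limb bud chromatin. On chromosome 2 of the genome build mm9, the cluster was taken from 74.49 to 74.62 Mb, the centromeric desert from 73.75 to 74.49 Mb and the telomeric desert from 74.62 to 75.55 Mb. A peak belonged to the stretch that held its midpoint. This gave 446 of the 175212 peaks of the 10 lists, with 225 in the cluster, 84 in the centromeric desert and 137 in the telomeric desert.

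The libraries came from limb buds of C57BL/6J embryos, with no mutation or treatment named in the labels. H3K27ac (acetylation of lysine 27 of histone H3) was profiled by ChIP-seq in 2 forelimb and 2 hindlimb libraries at embryonic day 10.5 (E10.5) and in 1 library of each limb at E11.5. H3K27me3 (trimethylation of the same residue) was profiled in 2 libraries of each limb at E10.5. Of the 24 samples, 10 inputs and 4 mRNA samples were not analysed here. A protocol field of the E11.5 samples speaks of day 10.5, in conflict with their titles and stage entries, and the titles were followed. Limb buds were dissected from the embryos with no cell sorting named, so a library averages over many cells. Fewer cells with a mark and less of the mark per cell cannot be told apart, and 2 marks at the same place may come from different cells.

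H3K27ac lies at active promoters and enhancers, and H3K27me3 is written by the Polycomb repressive complex that keeps developmental genes silent. Hoxd genes are switched on in the order in which they lie along the chromosome, from Hoxd1 towards Hoxd13. In limbs this happens first under enhancers of the telomeric desert, which serve the upper arm and forearm, and later under enhancers of the centromeric desert, which drive Hoxd13 and its neighbours in the future digits. Hoxd13 shapes the digits and is mutated in human synpolydactyly, Hoxd11 acts with Hoxa11 in the forearm, and Evx2 is expressed together with Hoxd13 in the distal limb bud.

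All values are covered bases, the length in kb that the peaks of a list occupy in a stretch or in a 5 kb bin. The lists carry no sequencing depth, so a base without a peak is one where no interval passed the authors' threshold. The E10.5 H3K27ac lists held 13589 to 21363 peaks, the H3K27me3 lists 10477 to 12901, and the E11.5 lists 23209 in forelimb and 32612 in hindlimb. Peaks of the E11.5 lists lie at least 1001 bp apart, against 1 bp at E10.5, so neighbours appear to have been joined there. Where stages are set side by side, E10.5 peaks up to 1000 bp apart were joined first if the text says so. The H3K27ac antibody lot also differed between the stages, and the marks differed in run type. Stage and lot, and mark and run type, cannot be told apart. No mm9 gene models were used: gene starts were placed to about 1 kb from general knowledge of mm9, and Hoxd11, Hoxd10, Hoxd3 and Hoxd4 fall on an edge between bins. Replicates are separate libraries. Whether different litters were used is not said in the labels, so the spread between replicates may be technical.

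Of the arrangements of the marks among the members, 4 are shown here by 1 promoter each. The base composition can thus be read beside the chromatin. Not every member falls into these 4: Hoxd11 lay where the marks met, and the bin after the Hoxd3 start had less H3K27ac at E11.5. Hoxd13 was covered by H3K27me3 at E10.5 and by H3K27ac at E11.5, Hoxd9 by H3K27ac at both stages, Hoxd4 by almost nothing, and Hoxd1 by H3K27me3 in all 4 libraries. The sequences are RefSeq promoters of the assembly GRCm38.p6, from 250 bases before to 50 after the start, on the plus strand, 5′ to 3′. Capitals mark each CG dinucleotide, the base pair step that makes up CpG islands, which reads the same on both strands. Their positions in that assembly are chr2:74667975-74668274 for Hoxd13, chr2:74697513-74697812 for Hoxd9, chr2:74721728-74722027 for Hoxd4 and chr2:74762730-74763029 for Hoxd1.
Hoxd13: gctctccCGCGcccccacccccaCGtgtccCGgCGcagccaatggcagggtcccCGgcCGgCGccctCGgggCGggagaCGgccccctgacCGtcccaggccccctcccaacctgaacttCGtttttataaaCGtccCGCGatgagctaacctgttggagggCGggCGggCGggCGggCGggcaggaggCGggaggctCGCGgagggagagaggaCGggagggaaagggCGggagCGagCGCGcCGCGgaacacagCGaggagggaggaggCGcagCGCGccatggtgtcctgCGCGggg
Hoxd9: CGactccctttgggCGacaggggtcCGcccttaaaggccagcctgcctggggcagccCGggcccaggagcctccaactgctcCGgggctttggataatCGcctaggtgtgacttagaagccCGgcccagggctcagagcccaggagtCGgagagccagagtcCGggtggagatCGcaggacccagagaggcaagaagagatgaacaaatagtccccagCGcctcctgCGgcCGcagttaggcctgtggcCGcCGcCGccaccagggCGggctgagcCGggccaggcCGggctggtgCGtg
Hoxd4: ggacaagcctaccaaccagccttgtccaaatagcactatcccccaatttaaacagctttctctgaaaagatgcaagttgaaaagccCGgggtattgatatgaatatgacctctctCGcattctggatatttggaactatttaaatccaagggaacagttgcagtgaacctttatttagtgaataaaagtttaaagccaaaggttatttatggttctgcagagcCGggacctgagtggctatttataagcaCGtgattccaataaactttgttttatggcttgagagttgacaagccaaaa
Hoxd1: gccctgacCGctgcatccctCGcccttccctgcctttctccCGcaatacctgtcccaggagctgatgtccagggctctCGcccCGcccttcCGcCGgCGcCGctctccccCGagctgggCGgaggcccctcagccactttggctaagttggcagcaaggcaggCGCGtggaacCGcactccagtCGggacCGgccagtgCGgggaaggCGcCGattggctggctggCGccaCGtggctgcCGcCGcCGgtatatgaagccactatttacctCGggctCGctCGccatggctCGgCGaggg

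The Hoxd13 promoter held 37 CG in its 300 bases, Hoxd1 29, Hoxd9 20 and Hoxd4 4. Of 32851 RefSeq mouse promoters of this length, 5.58% held at least as many CG as Hoxd13, 12.9% as Hoxd1, 26.5% as Hoxd9 and 68.6% as Hoxd4, with a median of 7, and 94.6% held at least 1. All 10 members matched the table, through 11 promoters because Hoxd11 has 2 listed starts, with 4 and 25 CG. The other members held 16 (Evx2), 13 (Hoxd12), 22 (Hoxd10), 6 (Hoxd8) and 20 (Hoxd3). A promoter rich in CG was thus found with H3K27me3, with H3K27ac, and with H3K27me3 at E10.5 and H3K27ac at E11.5. The promoter from the nearly unmarked stretch was poor in CG. The acetylated Hoxd8 and the first Hoxd11 start were poor in CG as well. No mm9 sequence of the peaks themselves was used here.

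**Figure D1:**
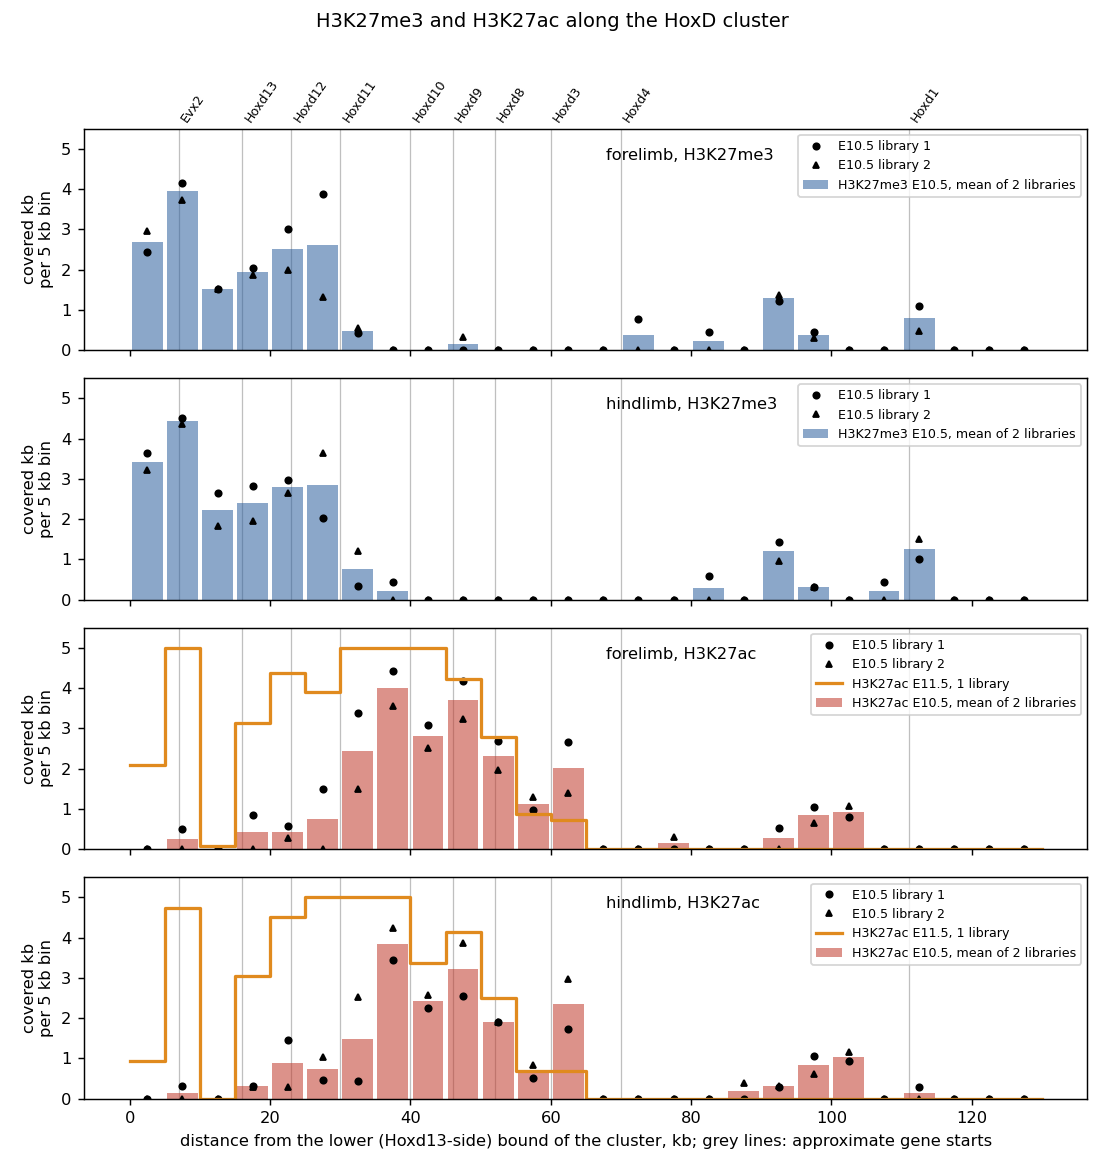
Covered kb per 5 kb bin along the 130 kb cluster, by limb and mark. Bars are means of the 2 E10.5 libraries, black symbols the libraries, the orange line the single E11.5 library and grey lines the approximate gene starts. H3K27me3 lies mostly in the first 30 kb, H3K27ac at E10.5 mostly from Hoxd11 to Hoxd3, and H3K27ac at E11.5 extends over most of both.

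At E10.5 the cluster was divided between the marks. From the lower bound to the bin before Hoxd11, a stretch of 30 kb with Evx2, Hoxd13 and Hoxd12 (chr2:74490001-74520000), H3K27me3 covered 17.0 and 13.4 kb in the forelimb libraries against 18.6 and 17.7 kb in those of hindlimb. H3K27ac covered 3.44 and 0.290 kb there in forelimb and 2.56 and 1.65 kb in hindlimb. In the next 30 kb, from Hoxd11 to beyond Hoxd8 (chr2:74520001-74550000), the order was the reverse. H3K27ac covered 18.7 and 14.1 kb in forelimb and 11.1 and 16.0 kb in hindlimb, and H3K27me3 at most 1.21 kb in any library. These stretches were drawn after the bins had been seen, so their contrast is a description. The mean position of the covered bases, which needs no such boundary, lay at 30.6 and 25.1 kb from the lower bound for H3K27me3 in forelimb and at 28.2 and 27.1 kb in hindlimb. For H3K27ac it lay at 46.8 and 50.8 kb in forelimb and at 50.5 and 49.8 kb in hindlimb. No library of one mark came within the range of the other.

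Evx2 lay in the bin most covered by H3K27me3. In chr2:74495001-74500000, H3K27me3 covered 4.15 and 3.74 kb in the forelimb libraries against 4.52 and 4.37 kb in those of hindlimb. H3K27ac covered 0.512 and 0 kb in forelimb and 0.307 and 0 kb in hindlimb, so only 1 library of each limb had any. The longest H3K27me3 region of the cluster, chr2:74493596-74498309, spanned 4714 bp and was found in all 4 lists. Its best peak in each list gave a mean score percentile of 91.3, and percentiles of other regions are taken in the same way. At E11.5, H3K27ac covered the whole bin in forelimb, 5.00 kb, and 4.72 kb of it in hindlimb.

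The bin of Hoxd13, chr2:74505001-74510000, carried less H3K27me3 at E10.5 than that of Evx2. H3K27me3 covered 2.03 and 1.86 kb in forelimb and 2.83 and 1.95 kb in hindlimb. H3K27ac covered 0.849 and 0 kb in forelimb and 0.326 and 0.304 kb in hindlimb, low but present in 3 of 4 libraries. At E11.5 H3K27ac covered 3.13 kb in forelimb against 3.04 kb in hindlimb, as a single interval in each limb, chr2:74505128-74508260 and chr2:74505289-74508327. The same interval had held H3K27me3 regions found in all 4 E10.5 lists, chr2:74505111-74505977 and chr2:74506213-74507486.

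Between Evx2 and Hoxd13, the bin chr2:74500001-74505000 behaved differently from both. H3K27me3 covered 1.52 and 1.51 kb in forelimb and 2.64 and 1.83 kb in hindlimb, and H3K27ac was at 0 in all 4 E10.5 libraries. At E11.5 it still had only 0.0910 kb of H3K27ac in forelimb and 0 in hindlimb, with acetylated intervals on either side. It was the only bin of the first 6 with less than 0.5 kb of H3K27ac at E11.5 in both limbs.

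Hoxd12, a further posterior Hox gene, had 3.02 and 2.0 kb of H3K27me3 in its bin (chr2:74510001-74515000) in forelimb and 2.98 and 2.64 kb in hindlimb. H3K27ac at E10.5 covered 0.585 and 0.290 kb in forelimb and 1.47 and 0.301 kb in hindlimb, and at E11.5 4.38 and 4.52 kb. Hoxd12 was thus the one gene of the Polycomb-marked end with some H3K27ac in every E10.5 library.

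At Hoxd11 the marks changed over. In the bin before its placed start, chr2:74515001-74520000, H3K27me3 covered 3.89 and 1.32 kb in forelimb and 2.04 and 3.64 kb in hindlimb, against 1.49, 0, 0.454 and 1.04 kb of H3K27ac in the same order of limbs. In the bin after it, chr2:74520001-74525000, H3K27me3 was at 0.419 and 0.544 kb in forelimb and 0.337 and 1.21 kb in hindlimb, while H3K27ac was at 3.37 and 1.5 kb in forelimb and 0.452 and 2.52 kb in hindlimb. The widest gaps between replicates of a limb, for either mark, were in these bins, and the limbs overlapped for both marks. At E11.5 both limbs had 5.00 kb of H3K27ac after the start, and 3.91 kb in forelimb against 5.00 kb in hindlimb before it.

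Hoxd10, known for its role in the motor neurons of the hindlimb, and Hoxd9, which acts with Hoxa9 in the upper forelimb, held the most H3K27ac of the cluster at E10.5. In the bin before the Hoxd10 start, chr2:74525001-74530000, H3K27ac covered 4.43 and 3.55 kb in forelimb and 3.45 and 4.24 kb in hindlimb. The bin after it had 3.10 and 2.53 kb, and 2.25 and 2.59 kb. The region that spans them, chr2:74526603-74532278, was 5676 bp long, was found in all 4 lists, and had a mean score percentile of 99.0 within them. The Hoxd9 bin, chr2:74535001-74540000, had 4.17 and 3.24 kb in forelimb and 2.54 and 3.88 kb in hindlimb, in the region chr2:74534387-74539286 with a mean percentile of 97.6. H3K27me3 was absent from these bins except for 0.319 kb at Hoxd9 in forelimb library 2 and 0.438 kb before Hoxd10 in hindlimb library 1. At E11.5 the Hoxd9 bin had 4.22 and 4.14 kb of H3K27ac in forelimb and hindlimb.

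Hoxd8 (chr2:74540001-74545000) had 2.69 and 1.96 kb of H3K27ac in forelimb and 1.92 and 1.90 kb in hindlimb, and no H3K27me3 in any library. At E11.5 it had 2.80 kb in forelimb against 2.49 kb in hindlimb. The start of Hoxd3, a gene that patterns the first neck vertebrae, lies near the end of the acetylated stretch. The bin before it had 0.974 and 1.29 kb in forelimb and 0.526 and 0.835 kb in hindlimb, and the bin after it, chr2:74550001-74555000, had 2.67 and 1.39 kb in forelimb and 1.72 and 2.97 kb in hindlimb. At E11.5 that bin was one of the few with less H3K27ac, 0.723 kb in forelimb against 0.702 kb in hindlimb, below each of the 4 E10.5 libraries. The last acetylated interval of the cluster at E11.5 ended at nearly the same base in the limbs, as chr2:74549310-74550723 in forelimb and chr2:74549316-74550702 in hindlimb. Beyond it the E11.5 lists had no H3K27ac up to the end of the cluster.

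Hoxd4, a gene of the hindbrain and neck, was nearly free of both marks. Over chr2:74555001-74580000, which holds its placed start, H3K27ac covered 0 and 0.298 kb in forelimb and 0 and 0.390 kb in hindlimb at E10.5, and 0 kb at E11.5. H3K27me3 covered 1.22 and 0 kb in forelimb and 0.579 and 0 kb in hindlimb, in pieces found in 1 library of a limb but never in both. Between Hoxd4 and Hoxd1, marks returned in short regions. H3K27me3 had a region at chr2:74583375-74585441 in all 4 lists, with 1667 and 1676 bp covered in forelimb and 1749 and 1276 bp in hindlimb. Inside its bounds lay the H3K27ac region chr2:74584437-74585030, with 568 and 0 bp in forelimb and 297 and 319 bp in hindlimb. Next to the H3K27me3 region lay 2 H3K27ac regions found in all 4 lists. In chr2:74587353-74588482, 1007 and 656 bp were covered in forelimb and 1065 and 328 bp in hindlimb. In chr2:74590575-74591774 the values were 804 and 1063 bp, and 926 and 1156 bp. Neither had a covered base at E11.5 in either limb.

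Hoxd1, at the far end, had H3K27me3 without H3K27ac in most libraries. In chr2:74600001-74605000 H3K27me3 covered 1.09 and 0.487 kb in forelimb and 1.01 and 1.5 kb in hindlimb. H3K27ac was at 0 in both forelimb libraries, at 0.301 and 0 kb in hindlimb, and at 0 at E11.5. The last 3 bins of the cluster had no peak in any list.

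Bins with both marks were sought in each limb at E10.5, as those with at least 0.5 kb in all 4 lists of the limb. There were 0 of 26 such bins in forelimb and 0 in hindlimb. Across the genome, 0.335% of 26581 forelimb bins and 0.795% of 28295 hindlimb bins with a peak in any list of the limb met the rule, and a count of 0 in so few bins is near those shares. In 8 bins of each limb both H3K27ac libraries and no H3K27me3 library met the minimum, and the reverse held in 2 forelimb and 6 hindlimb bins. In 8 bins of each limb no library met it, and in the remaining bins replicates differed. In 4 bins no list of either mark or stage had a peak. The counts moved when replicate 1 or 2 of a limb was left out for both marks at once, which leaves 1 list of each mark. In forelimb 5 bins had both marks without replicate 2 and 1 without replicate 1. In hindlimb 2 did without replicate 1 and 1 without replicate 2. Leaving out a list of one mark alone was not run.

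**Figure D2:**
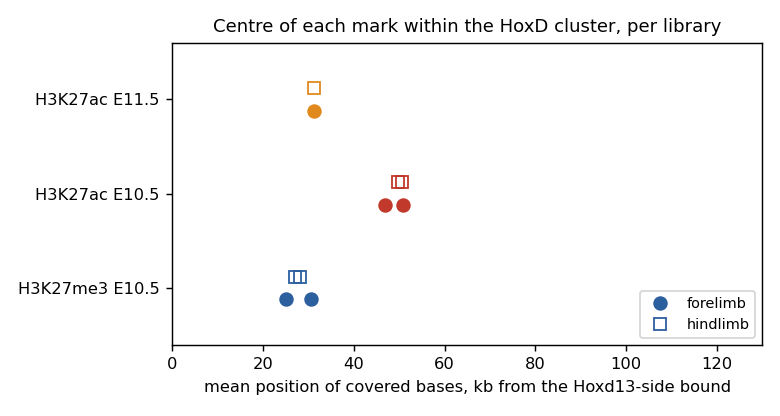
Mean position of covered bases within the cluster, in kb from its Hoxd13-side bound, for each library (filled circles forelimb, open squares hindlimb). The H3K27me3 libraries lie between 25.1 and 30.6 kb, the E10.5 H3K27ac libraries between 46.8 and 50.8 kb, and the E11.5 H3K27ac libraries at 31.1 and 31.2 kb.

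A day later, H3K27ac reached across the end that had carried H3K27me3. Over Evx2 to Hoxd12 the E11.5 lists covered 18.6 and 18.2 kb in forelimb and hindlimb, where the E10.5 libraries had 0.290 to 3.44 kb. From Hoxd11 to Hoxd8 they covered 22.9 and 20.7 kb, a smaller step from 11.1 to 18.7 kb. The E10.5 values of both stretches are of peaks as deposited, and values with joined peaks were not computed for them. Over the whole cluster, joining raised forelimb library 1 from 27.2 to 32.6 kb. The mean position of H3K27ac was at 31.1 kb in forelimb against 31.2 kb in hindlimb, just above the range of the H3K27me3 libraries at E10.5. From before Hoxd11 to Hoxd9 the forelimb list had 1 interval of 22625 bp (chr2:74516599-74539223), and the hindlimb list 1 of 22142 bp from Hoxd12 to Hoxd10 (chr2:74510482-74532623). With 1 library per limb at E11.5 there is no test of these differences. H3K27me3 at E11.5 was not analysed here, so whether the mark was still present under the new H3K27ac is not known from these lists.

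H3K27ac at E11.5 was counted over bins with at least 1 kb of H3K27me3 in both E10.5 lists of a limb. The rule was added after the lists had been seen. It does not read H3K27me3 at E11.5, so it does not show a loss of that mark. In the cluster, 5 of 7 such forelimb bins (71.4%) had at least 1 kb of H3K27ac at E11.5, against 1.72% of the 2614 such bins of the whole genome. In hindlimb it was 4 of 7 (57.1%), against 3.68% of 4027 bins. In both limbs these included the bins of Evx2, Hoxd13 and Hoxd12 and the one before Hoxd11, and in forelimb also the first bin of the cluster. Adjoining bins share intervals and are not independent, and with both minimums at 2 kb the forelimb count was 3. The counted bins below 1 kb of H3K27ac at E11.5 were that between Evx2 and Hoxd13 in both limbs and chr2:74580001-74585000 in forelimb. In hindlimb they were also the first bin and that of Hoxd1. The first bin had 0.93 kb of hindlimb H3K27ac at E11.5, just below the minimum, and that of Hoxd1 had 0 kb. Counted as regions, 11 of 18 cluster H3K27me3 regions found in both libraries of a limb had H3K27ac at E11.5 in that limb, against 4.74% of the 6814 such regions of the genome. In the centromeric desert 1 bin per limb had enough H3K27me3 to be counted, and 0 had at least 1 kb of H3K27ac at E11.5.

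The opposite course, H3K27ac of at least 0.5 kb in both E10.5 lists (joined) and 0 at E11.5, was found in 2 of 9 cluster bins in forelimb and 2 of 8 in hindlimb. Across the genome 4.78% of 5834 forelimb bins and 3.46% of 6264 hindlimb bins did so. In each limb these were the bins chr2:74585001-74590000 and chr2:74590001-74595000 between Hoxd4 and Hoxd1. With a minimum of 1 kb both counts were 0, so they rest on short regions. In the telomeric desert 0 of 6 forelimb bins and 0 of 3 hindlimb bins lost H3K27ac in this way.

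**Figure D3:**
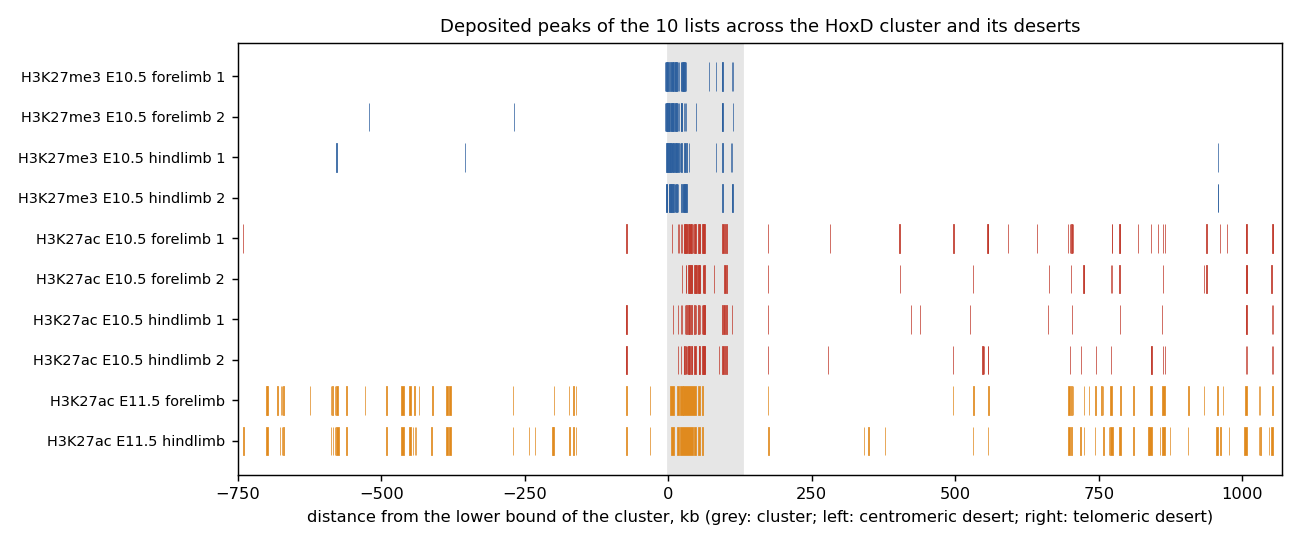
Every deposited peak of the 10 lists against its distance in kb from the lower bound of the cluster (grey band). Each row is a library, blue H3K27me3 at E10.5, red H3K27ac at E10.5 and orange H3K27ac at E11.5. The left side, the centromeric desert, is almost empty in the red rows and filled in the orange rows, while the right side has peaks in both.

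The centromeric desert, 740 kb long, was nearly without H3K27ac at E10.5. The libraries covered 1.43 and 0 kb in forelimb and 1.13 and 1.16 kb in hindlimb. Apart from the end of a peak that crosses the outer bound in forelimb library 1, all of this lay in a single region, chr2:74416357-74417826, with 1414 and 0 bp in forelimb and 1130 and 1163 bp in hindlimb. By its best peak this region was not weak in the lists that had it, at a mean score percentile of 81.8. It was also covered at E11.5, by 1347 bp in forelimb and 1311 bp in hindlimb. Whether it is a gene promoter was not tested, since no mm9 gene models were used.

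At E11.5 the same desert had 28 H3K27ac intervals in forelimb and 28 in hindlimb, covering 39.9 and 42.6 kb, or 5.40% and 5.75% of its length. Of these, 27 and 27 had no covered base in either E10.5 list of the limb, and are called new here. Of all intervals of the E11.5 lists, 51.9% in forelimb and 63.9% in hindlimb were new in this sense. The longest new interval of the forelimb was chr2:74025279-74029980 (4702 bp), followed by chr2:74107614-74111834 (4221 bp), chr2:73911047-73915252 (4206 bp), chr2:74102638-74106533 (3896 bp) and chr2:74039064-74041850 (2787 bp). In hindlimb the longest were chr2:73910842-73916335 (5494 bp), chr2:74025041-74029881 (4841 bp), chr2:74107776-74112027 (4252 bp), chr2:74102873-74106689 (3817 bp) and chr2:73789935-73793024 (3090 bp). The first 4 of each limb were the same places, with nearly the same bounds. In all, 23 of 28 forelimb intervals were covered in hindlimb and 22 of 28 hindlimb intervals in forelimb.

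H3K27ac at E11.5, new or not, was not spread evenly over the centromeric desert. In steps of 100 kb away from the cluster, forelimb H3K27ac at E11.5 covered 2.36, 3.12, 0.463, 8.12, 12.2, 7.93 and 5.41 kb, and hindlimb H3K27ac 2.41, 5.03, 3.06, 8.07, 10.6, 7.59 and 5.64 kb. The first step includes the interval that was not new, of 1389 bp in forelimb and 1435 bp in hindlimb. Both limbs were highest between 400 and 500 kb from the cluster, and the last 40 kb of the desert held 0.379 and 0.193 kb. The third step had the largest relative gap between the limbs, with 1 forelimb interval and more in hindlimb, but single libraries allow no test. In the RefSeq gene order of GRCm38.p6, Lnpk is the only protein-coding gene listed between Atp5g3 and Evx2. Exon and intron positions are not given, since no mm9 gene models were used.

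Read in 5 kb bins with joined E10.5 peaks, 12 of 30 forelimb bins of the centromeric desert (40%) had at least 1 kb of H3K27ac at E11.5 and 0 in both E10.5 lists. Among all 32435 forelimb bins with H3K27ac in any list, 10.1% did. In hindlimb 15 of 30 bins (50%) met the rule, against 16.6% of 42947. Of these bins 10 were common to the limbs, 83.3% of the forelimb and 66.7% of the hindlimb set. In the cluster 1 of 17 bins met the rule in forelimb, the first one, and 0 of 17 in hindlimb, because most of its bins already had some H3K27ac. The first bin missed the rule in hindlimb at 0.93 kb, just below the minimum. Without forelimb library 1 the cluster count was 4, and the centromeric counts without single libraries were 12 to 13 in forelimb and 15 in hindlimb.

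H3K27me3 touched the centromeric desert almost only beside the cluster. It covered 3.13 and 3.44 kb in forelimb and 3.47 and 2.77 kb in hindlimb. The 100 kb next to the cluster held 3.13 and 2.73 kb of this in forelimb and 2.86 and 2.77 kb in hindlimb. Its main regions, chr2:74485289-74488375 and chr2:74488384-74489254, were found in all 4 lists and adjoin the Evx2 end, so the H3K27me3 block ran past the bound used for the cluster. The first had 2163 and 1832 bp in forelimb and 2557 and 2449 bp in hindlimb. Another 6 regions were each found in 1 library, among them chr2:73968289-73968709 with 421 bp in forelimb library 2. The regions found in all 4 lists had no covered base of H3K27ac at E11.5 in either limb. One of the short ones, chr2:73911814-73912128 in hindlimb library 1, lay inside an interval that was acetylated in both limbs at E11.5.

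The telomeric desert, 930 kb long, already had H3K27ac at E10.5. It covered 17.0 and 9.83 kb in forelimb in 30 and 17 peaks, and 7.47 and 11.3 kb in hindlimb in 12 and 20 peaks. The limbs overlapped. The 4 lists formed 46 regions, of which 30 were found in 1 library, 10 in both libraries of at least 1 limb and 3 in all 4. The best ranked was chr2:75495777-75498764, with 2710 and 2386 bp in forelimb, 1846 and 2589 bp in hindlimb and a mean percentile of 95.6. The next, chr2:75540870-75542718, had 1329 and 1183 bp, and 1317 and 1283 bp. Nearest to the cluster, chr2:74663473-74664571 had 840 and 1099 bp in forelimb and 854 and 960 bp in hindlimb. These 3 were covered at E11.5 in both limbs, with 2988, 1603 and 1099 bp in forelimb and 2934, 1849 and 1046 bp in hindlimb. Whether any of these 3 is a gene promoter was not tested, since no mm9 gene models were used.

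The telomeric desert had 5 limb-only H3K27ac regions, all of them found in both forelimb libraries and in no hindlimb library. Over the genome, 2.86% of the 29871 H3K27ac regions were forelimb-only and 2.68% hindlimb-only in this way, and here it was 5 and 0 of 46. They were chr2:74892631-74893238 (391 and 286 bp), chr2:75191659-75192622 (706 and 269 bp), chr2:75262320-75263229 (669 and 671 bp), chr2:75275978-75276717 (283 and 740 bp) and chr2:75427342-75428089 (748 and 316 bp). At E11.5 the hindlimb list covered the middle 3 by 894, 910 and 740 bp. The forelimb list, shorter as a whole at 31.3 Mb against 47.2 Mb, covered 271, 676 and 342 bp of them. The first and the last were at 0 in both limbs at E11.5. None of the 5 was therefore forelimb-only at E11.5. Regions were formed without a gap, and at E10.5 chr2:75275978-75276717 ended close to chr2:75276760-75277421, covered by 662 bp in hindlimb library 1. Likewise chr2:75191659-75192622 ended close to chr2:75192763-75193642, covered by 730 bp in that library. Whether these regions stay forelimb-only with joined peaks was not counted.

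At E11.5 the telomeric desert had 25 intervals and 39.5 kb in forelimb, and 30 intervals and 54.2 kb in hindlimb. The hindlimb list was longer as a whole, at 47.2 Mb against 31.3 Mb. As a share of its list the desert was 0.126% in forelimb against 0.115% in hindlimb. Of the intervals, 10 and 20 were new, against the shares of 51.9% and 63.9% of the whole lists, and 18 and 18 were covered in the other limb. The longest new forelimb intervals were chr2:75232972-75234954 (1983 bp), chr2:75394946-75396618 (1673 bp), chr2:75446339-75446982 (644 bp), chr2:75521048-75521688 (641 bp) and chr2:75223001-75223482 (482 bp). Those of hindlimb were chr2:75445068-75448278 (3211 bp), chr2:75450670-75452810 (2141 bp), chr2:75299847-75301932 (2086 bp), chr2:75247766-75249108 (1343 bp) and chr2:74837852-74839004 (1153 bp). The longest of each limb was shorter than the longest 4 of the centromeric desert. The bin rule above called 2 of 40 forelimb bins (5.00%) and 9 of 44 hindlimb bins (20.5%), near the genome's 10.1% and 16.6%, with 1 bin in common. Without forelimb library 1 the forelimb count was 5. H3K27ac leaned towards the far part of the desert at E11.5, and less evenly so at E10.5. Within 400 kb of the cluster no 100 kb step exceeded 1.10 kb at E10.5 or 1.79 kb at E11.5. Between 600 and 900 kb the steps held 5.54 to 10.4 kb in forelimb and 11.3 to 13.5 kb in hindlimb at E11.5. At E10.5 the same steps held 0.888 to 4.05 kb in forelimb and 0.482 to 2.59 kb in hindlimb. The hindlimb step from 600 to 700 kb, with 0.662 and 0.598 kb, was below that next to the cluster, with 0.854 and 0.960 kb. The hindlimb step from 800 to 900 kb held 1.85 and 2.59 kb. In the RefSeq order Mtx2 and Gm50595 are the protein-coding genes listed between Hoxd1 and Hnrnpa3. Where Hnrnpa3 lies against the outer bound of the desert in mm9 was not checked, and gene promoters were not taken out of the counts.

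H3K27me3 was almost absent from the telomeric desert, at 0 kb in both forelimb libraries and at 0.929 and 0.628 kb in the hindlimb libraries. All of it lay in 1 region, chr2:75447638-75448566. The hindlimb H3K27ac interval chr2:75445068-75448278 of E11.5 covered 641 bp of it, and the forelimb list 0 bp. It was the only limb-only H3K27me3 region of the deserts. Over the genome, 8.52% of the 14776 H3K27me3 regions were hindlimb-only and 1.09% forelimb-only.

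**Figure D4:**
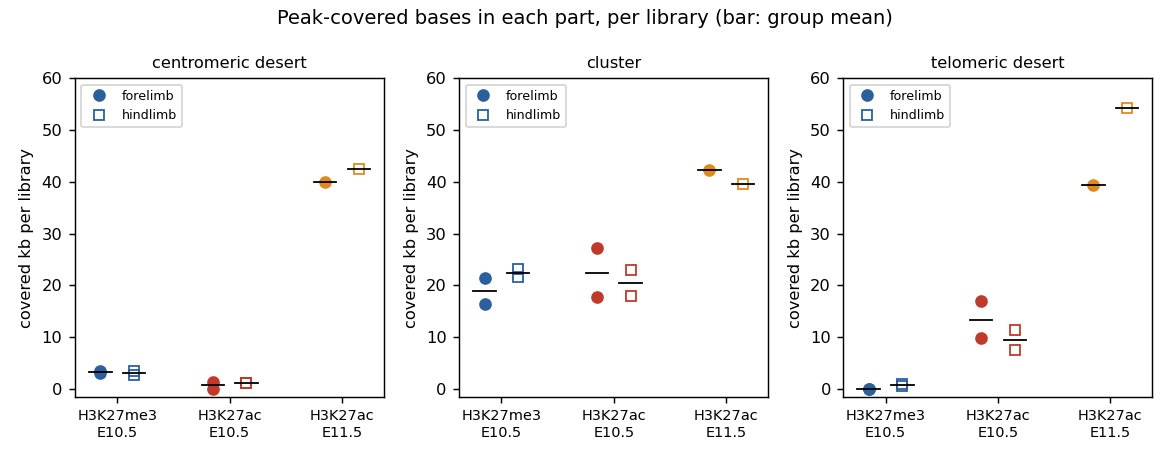
Covered kb in the centromeric desert, the cluster and the telomeric desert, for each library (filled circles forelimb, open squares hindlimb, black bars group means). H3K27ac in the centromeric desert lies between 0 and 1.43 kb at E10.5 and at 39.9 and 42.6 kb at E11.5.

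The step from E10.5 to E11.5 was set against the growth of the whole lists, with E10.5 peaks joined. The whole E11.5 forelimb list covered 1.97 and 3.72 times as many bases as the E10.5 forelimb libraries 1 and 2, and the hindlimb list 4.49 and 3.60 times. In the cluster the ratios were 1.29 and 1.97 in forelimb and 1.95 and 1.46 in hindlimb, below those of the whole lists. In the telomeric desert they were 2.12 and 3.94 in forelimb and 6.69 and 4.46 in hindlimb, close to those of the lists in forelimb and above them in hindlimb. In the centromeric desert they were 27.9 for forelimb library 1 and 35.4 and 34.8 in hindlimb, and forelimb library 2 had 0 kb to divide by. The highest ratios were therefore those of the centromeric desert, which started from at most 1.43 kb. These are ratios of lists from separate libraries, with no replicate at E11.5.

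The cluster was among the most acetylated stretches of its length in each list. Against windows of 130 kb tiled along the genome, its H3K27ac at E10.5 ranked 2 and 2 in forelimb and 5 and 4 in hindlimb, among 5789 to 7399 windows with any peak. H3K27me3 ranked 33 and 44 in forelimb and 49 and 43 in hindlimb. At E11.5 the cluster ranked 12 in forelimb and 63 in hindlimb. Against windows of 740 kb, H3K27ac of the centromeric desert ranked 1968 of 2504 windows in forelimb library 1 and 1836 and 1948 in hindlimb, and at E11.5 133 of 2625 and 279 of 2769. The windows were laid out from the bounds of the stretch itself, so it fell whole into 1 window while other loci could be split. Ranks place a stretch within its own list and do not measure a change between lists.

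Forelimb and hindlimb were compared at E10.5 by covered bases, with a two-sided exact permutation test over the 4 libraries of a mark. With 2 libraries against 2 the smallest p it can give is 0.333. In the cluster, H3K27ac covered 22.5 ± 6.68 kb in forelimb against 20.5 ± 3.57 kb in hindlimb (SD, n = 2 each; exact p = 1). H3K27me3 covered 18.9 ± 3.55 and 22.4 ± 1.09 kb (SD, n = 2 each; exact p = 0.333), with libraries of 21.4 and 16.4 kb against 23.2 and 21.6 kb that do not overlap. The hindlimb H3K27me3 lists were longer as a whole, at 13.5 and 12.02 Mb against 9.93 and 7.56 Mb, and as a share of its list the cluster was 0.0405 percentage points higher in forelimb. In the telomeric desert H3K27ac covered 13.4 ± 5.07 and 9.41 ± 2.74 kb (SD, n = 2 each; exact p = 0.667), and H3K27me3 0 and 0.779 ± 0.213 kb (SD, n = 2 each; exact p = 0.333). In the centromeric desert both marks gave an exact p of 1. The adjusted p was 1 for all 6 comparisons. The sizes of these differences rested on single libraries. The telomeric H3K27ac difference, 4.01 kb higher in forelimb, was 0.427 kb without forelimb replicate 1, 7.59 kb without forelimb replicate 2 and 2.07 kb without hindlimb replicate 1. The cluster H3K27me3 difference, -3.49 kb as forelimb minus hindlimb, was -5.997 kb without forelimb replicate 1 and -0.983 kb without forelimb replicate 2.

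Nor did the position of a mark within the cluster differ beyond the spread of the libraries. The mean position of H3K27ac was 48.8 ± 2.87 kb in forelimb against 50.2 ± 0.534 kb in hindlimb, and that of H3K27me3 27.9 ± 3.83 and 27.6 ± 0.770 kb (SD, n = 2 each; exact p = 1 for both). No 5 kb bin of the cluster or the deserts had both libraries of a limb at least 1 kb above both of the other limb. For H3K27ac this was 0 of 17 cluster bins and 0 of 34 telomeric bins in either direction, where 0.0671% of 25321 bins of the genome were higher in forelimb and 0.079% in hindlimb. For H3K27me3 it was 0 of 15 cluster bins, where 0.221% of 12207 bins were higher in forelimb and 3.19% in hindlimb. A count of 0 in so few bins is near those shares. Without the 1 kb gap, 7 H3K27ac bins and 1 H3K27me3 bin were higher in forelimb, and 4 H3K27me3 bins in hindlimb. Within the cluster, the limb-only regions were hindlimb regions: chr2:74553577-74554166 for H3K27ac (366 and 290 bp), and chr2:74503230-74503654 (318 and 425 bp) and chr2:74521567-74522289 (322 and 491 bp) for H3K27me3. Thus 1 of 31 H3K27ac regions and 2 of 27 H3K27me3 regions of the cluster were hindlimb-only, near the 2.68% and 8.52% of the genome. They were chosen after their values had been seen, and all are shorter than 1 kb. Regions were formed without a gap, and each of these lies near a region of the same mark found in both forelimb libraries. For H3K27ac this is chr2:74551805-74553477, and for H3K27me3 chr2:74502362-74503220 and chr2:74520078-74520792. Whether they stay limb-only with joined peaks was not counted.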

How the data were processed

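Peak lists of 10 ChIP-seq libraries were used, and the labels gave limb, stage and mark. The submitters' processing notes name Bowtie 0.12.3, MACS 1.37 and the build mm9. The E10.5 lists have 1 file per library and, per the file headers, a MACS p-value threshold of 1e-05. The deposited score of each E10.5 peak equals minus 10 times the base-10 logarithm of its p-value, and the lowest was 50. The E11.5 lists give only the start and end coordinates the authors deposited, without scores. Neither the threshold behind them nor the input used as background for any list is given in the sources used here.

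With Python 3.11.15 (numpy 2.4.6, pandas 2.3.3, matplotlib 3.10.9), covered bases were clipped at the bounds with overlapping peaks counted once. Regions are unions of the 4 E10.5 lists of a mark, without a gap. Percentiles are ranks of scores within a list. That of a region is the percentile of its best peak, averaged over the lists that had the region. Over all peaks of the cluster, the median percentile in the E10.5 H3K27ac libraries was 38.8 to 62.2. Bins of 5 kb were counted over the whole genome with the same rules, and the rules for bins, regions and new intervals were tested on simulated data. Exact permutation tests ran over libraries, with Benjamini-Hochberg adjustment over 6 comparisons. Promoters came from RefSeq GRCm38.p6, and no coordinate was converted between builds. That table had been seen when gene starts were placed in mm9, so their shared order (10 of 10 genes, spacing within 0.852 kb) is not an independent check. Named items were the 10 members, all 26 bins, and in each desert the 5 best ranked H3K27ac regions found in both libraries of a limb, the 3 longest H3K27me3 regions, all limb-only regions and the 5 longest new E11.5 intervals. Where fewer met a rule, all of them are given. A comparison with the other Hox clusters was planned but not run, because their windows were not given. The members, bounds and lists were chosen with earlier results of these data known.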

Additional observations from a re-analysis of the deposited data

Results flagged for a closer look

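In the bin of Hoxd8, chr2:74540001-74545000, H3K27ac moved in opposite directions between the stages in the limbs when E10.5 peaks up to 1000 bp apart were joined. The E11.5 hindlimb list covered more than both E10.5 hindlimb libraries, by at least 0.091 kb, and the E11.5 forelimb list covered less than both E10.5 forelimb libraries, with the smaller of these differences at -0.261 kb. The difference between the limbs was not tested. With E10.5 peaks as deposited, the forelimb libraries covered 2.69 and 1.96 kb of this bin, both less than the 2.80 kb of the E11.5 list, so the opposite directions depend on joining.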

How the results depend on the processing

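Of 339 recomputed values, 12 changed direction, all of them limb differences at E10.5 whose exact p was 1 or the smallest possible. Keeping only the top 50% of peaks by score, the forelimb minus hindlimb difference turned to 0.203 kb for the mean position of H3K27ac in the cluster, to -3.86 kb for that of H3K27me3, and to -0.632 kb for H3K27me3 in the centromeric desert. With joined peaks the H3K27me3 position differed by -0.685 kb, and as a share of the list cluster H3K27me3 differed by 0.0405 percentage points. Leaving out single libraries gave -1.15 to 0.283 kb for H3K27ac in the centromeric desert, -2.77 to 6.68 kb in the cluster, and -3.38 to 0.688 kb for its mean position. For H3K27me3 it gave -0.193 to 0.509 kb in the centromeric desert and -2.48 to 2.94 kb for the mean position. The values without single libraries were 0.427 to 7.59 kb for H3K27ac in the telomeric desert, and for H3K27me3 -5.997 to -0.983 kb in the cluster and -0.929 to -0.628 kb in the telomeric desert.

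Counts of bins moved by over 1.5 times as follows. Limb-separated bins without a gap were 7 (H3K27ac) and 1 (H3K27me3) higher in forelimb and 4 (H3K27me3) in hindlimb, with joined peaks 1 H3K27me3 bin in hindlimb, and without single libraries 0 to 1 for H3K27ac in either direction and for H3K27me3 in hindlimb. With at least 2 kb at E11.5, newly acetylated bins were 7 in forelimb and 8 in hindlimb in the centromeric desert and 0 and 3 in the telomeric desert. With the top 50% of each list they were 4 and 3 in the cluster, and 5 in the telomeric desert of the forelimb. With lists of equal length they were 2 and 1 in the cluster. Without single libraries the cluster gave 1 to 4 in forelimb and 0 to 1 in hindlimb, and the telomeric desert 3 to 5 in forelimb. Bins with both marks were 1 in forelimb with joined peaks, 3 in forelimb and 6 in hindlimb with a minimum of 0.25 kb, and 1 to 5 and 1 to 2 when a replicate number was left out for both marks at once. Cluster bins that lost H3K27ac were 1 in each limb with the top 50%, 1 in hindlimb with lists of equal length and 0 in each limb with the minimum doubled. Cluster bins with H3K27me3 at E10.5 and H3K27ac at E11.5 were 3 in forelimb with the minimum doubled. The cause of these changes was not tested. The minimums of the last 2 rules were chosen after seeing the data.

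The labels of the limbs share replicate numbers. With a replicate block the differences are the same values, for example 1.96 kb for cluster H3K27ac and -3.49 kb for cluster H3K27me3, and the smallest p that 2 pairs allow is 0.5. Same-numbered libraries did not deviate together (correlation -0.152 for H3K27ac and 0.0437 for H3K27me3 over bins). A crossed pairing of H3K27ac, added after seeing the data, left the differences at the same values. Since 2 pairs allow no sign-flip p below 0.5, neither pairing could call a difference. For H3K27ac in the telomeric desert the crossed pairing gave this smallest sign-flip p. Depth is unknown, so absence of a peak cannot be told from too few reads.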
